A study of Mus musculus with 36 samples.

Results

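The genes described here are named for the mitochondrial ribosomal proteins of the mouse, and they were followed in the embryonic heart from E10.5 to E18.5. They were the genes whose symbol is Mrpl or Mrps followed by a number and that had a probe set annotated to that symbol alone, and the probe set with the highest mean over all 36 arrays stood for the gene. This gave 76 of the 18193 genes on the array, with 156 of 45037 probe sets. The rule used no comparison between samples. All 76 passed the filter on low values, which asked for an intensity over 171.8, the median of the whole table, on 3 or more arrays, and all 76 symbols were found in RefSeq. The samples were total RNA from C57BL/6 embryos of timed matings, on 36 Affymetrix arrays in 12 groups of 3. At E10.5 and E11.5 a sample was the middle of the embryo with the heart in it, according to the description, although the source field names the whole heart, and these are called heart region here. The later ages were E12.5, E13.5 and E14.5 and then E16.5 and E18.5, each with both ventricles and the atria as separate samples. The 6 arrays titled E16.5 carry day 15.5 in their description, and the day of the title is used. Nothing in the labels tells if the 3 arrays of a group came from separate embryos or litters, so that p-values measure the spread between these samples, which may be technical.

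Mitochondria carry their own ribosome, which translates the few membrane proteins of the respiratory chain that are encoded in mitochondrial DNA. Its RNAs come from that DNA, while each of its proteins is encoded in the nucleus, made in the cytosol and imported. The proteins form a large subunit, whose genes are named Mrpl, and a small subunit, named Mrps. A part of them have counterparts in the bacterial ribosome, and the others are found in mitochondria alone. Cardiac muscle fills with mitochondria before birth and depends on them afterwards, and inherited defects of several of these proteins cause cardiomyopathy.

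The deposited intensities shared one 2% trimmed mean, between 500.002 and 500.003 on the 36 arrays, and arrays of a group correlated at 0.941 to 0.984. The array medians were not level. They ran from 143.7 on ventricular array 2 of E18.5 to 210.8 on ventricular array 1 of E14.5. The mean log2 level of the members, relative to each gene's own mean, was 0.40 on the former and -0.05 on the latter. Counts after median centring are given at the end for E12.5, E14.5, E16.5, the atrial change, the difference between chambers and E11.5 against E10.5. For other comparisons it is given only within a range over all settings but single arrays left out. That range was 49 to 60 genes called for the mean of 5 ages, 20 to 41 at E13.5, 38 to 59 at E18.5 and 26 to 46 for the ventricular change. The part of this spread was not tested otherwise. Precision is limited by 3 arrays a group. Some arrays stood apart. Sftpc, a lung surfactant gene, was 10949, 5694 and 1745 on atrial array 3 of E18.5, E16.5 and E13.5, and at most 333.8 elsewhere. Alb, the albumin gene of liver, was highest on atrial array 2 of E12.5 (6352) and ventricular array 2 of E16.5 (4237). Irx4, which marks ventricular muscle, lay at 1485 to 1965 on the 15 ventricular arrays and at 14.3 to 491.6 on 13 of the 15 atrial arrays, but at 1281 and 792.5 on atrial arrays 1 and 2 of E14.5. Among the 13, it was highest on array 2 of E12.5 (433), array 2 of E16.5 (355.6) and array 1 of E18.5 (491.6). Myl2, another ventricular muscle gene, read 12701, 16782 and 13219 on these arrays, and 14090 to 25225 on the ventricular ones. On the rest of the 13, Irx4 was at most 137.2. Nr2f1, which lay at 871.7 to 2889 on the atrial arrays, was 457.3 on ventricular array 1 of E12.5 and at most 246 on the other ventricular ones. Sln, at 2190 to 15577 on the atrial arrays, was 1789 on ventricular array 1 of E18.5 and at most 566.8 on the other ventricular ones. The part of such arrays in the results was not tested. The summed intensity of 8 ventricular muscle markers was 51792 to 85331 on the ventricular arrays and 5507 to 60103 on the atrial ones, and that of 11 atrial muscle markers 25319 to 54562 and 37933 to 83625. The chamber labels are used as given.

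The 76 genes followed one main pattern over the 12 groups. The correlation of a gene's group means with the mean of the other members had a median of 0.82, above 0.8 for 42 genes, above 0.5 for 62 and below 0 for 4. These are descriptions over 12 points that share arrays. The highest group was the E18.5 ventricle for 50 genes and the E10.5 heart region for 13. The lowest group was an atrial one for 58, and it was the E13.5 atrium for 36. Differences were small in size: the range between a gene's highest and lowest group had a median of 0.58 on the log2 scale, from 0.22 for Mrps12 to 1.32 for Mrps36. Mrps6 stood farthest from the pattern, with a correlation of -0.61, followed by Mrpl41 (-0.11) and Mrps30 (-0.04).

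**Figure D1:**
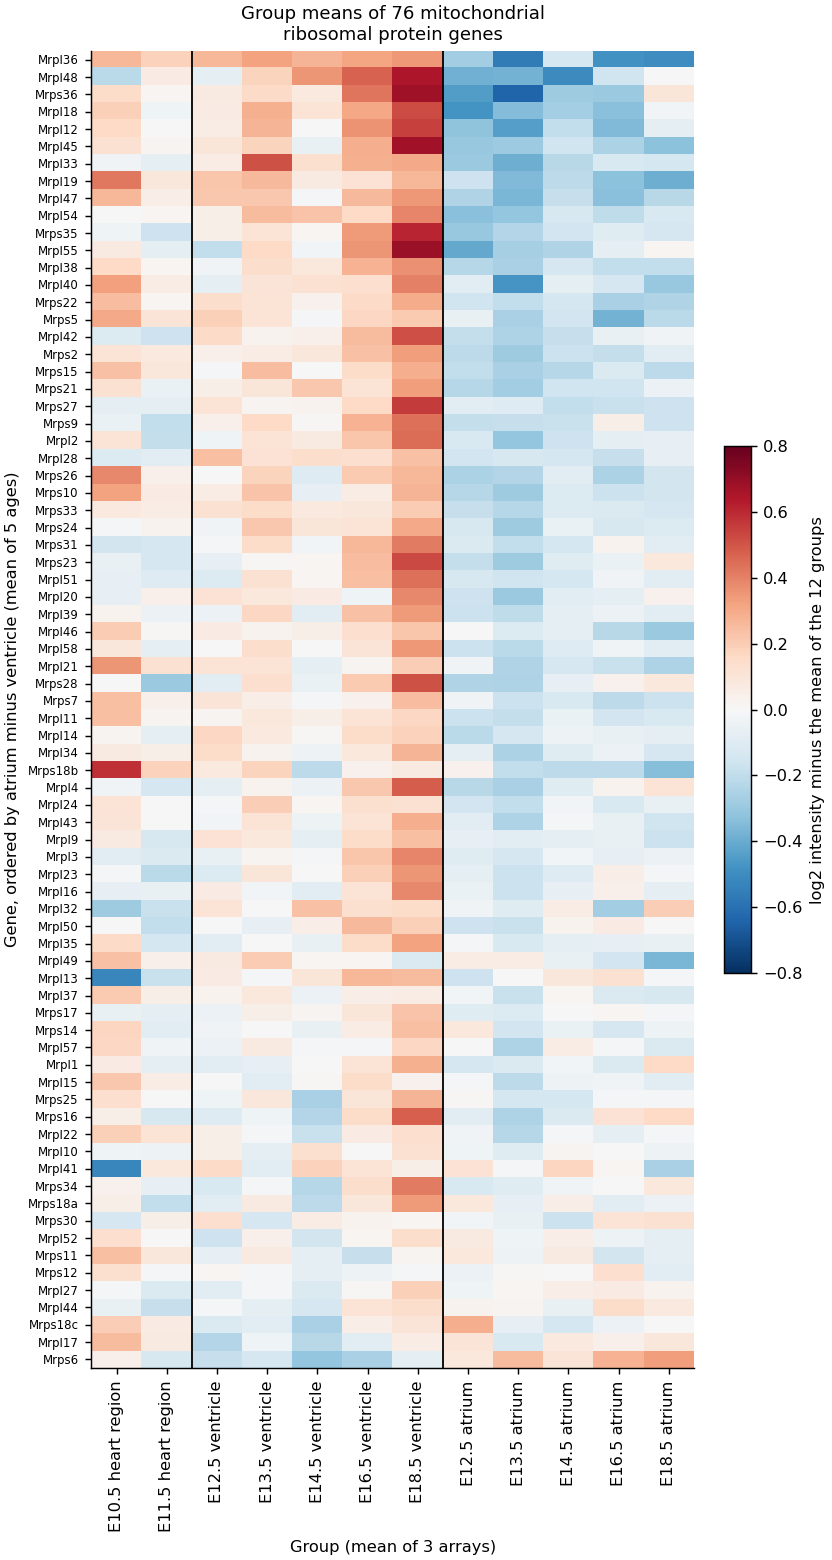
Group means of the 76 genes (rows, ordered by their difference between atrium and ventricle) in the 12 groups (columns, 3 arrays each), as log2 intensity minus the gene's mean over the groups. Most rows are reddest in the E18.5 ventricle and blue in the atrial columns, while Mrps6 in the last row runs the other way.

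The promoters of these genes are shown for a few members as a description, and a link to the shared pattern was not tested. RefSeq promoter windows of GRCm38.p6, from 250 bases before to 50 after the start, were at hand for 67 of the 76 genes. Motifs were searched on both strands, and an identical letter run was a match. CCGGAAG, the core read by ETS factors such as GABP, was in 24 windows (35.8%, against 11.9% of 17492 protein-coding promoters). GCGCATGCG, the NRF1 motif, was in 7 (10.4% against 2.4%), and AAGATGGCG, the YY1 motif, in 8 (11.9% against 1.9%). These factors are known from promoters of nuclear genes for mitochondrial proteins. At least 1 of these 3 motifs was in 34 windows (50.7%, against 15.3%). GGGGCGGGG, the SP1 motif, was in 13 (19.4% against 15.5%), and the E-box CACGTG in 5 (7.5% against 7.9%). No bases were shared by matches of different motifs in the 67 windows. A match is a description of letters and not a binding site. The 250 bases before the start follow, 5′ to 3′ on the gene's strand, with motif matches in capitals: Mrpl36 (chr13:73330759-73331008, plus strand) and Mrpl18 (chr17:12916092-12916341, minus) for members far lower in atria, Mrpl51 (chr6:125191950-125192199, plus) for the larger of the 2 called differences between the chambers over time, and Mrpl17 (chr7:105811088-105811337, minus) and Mrps6 (chr16:92058086-92058335, plus) for the pair that were higher in atria.
Mrpl36: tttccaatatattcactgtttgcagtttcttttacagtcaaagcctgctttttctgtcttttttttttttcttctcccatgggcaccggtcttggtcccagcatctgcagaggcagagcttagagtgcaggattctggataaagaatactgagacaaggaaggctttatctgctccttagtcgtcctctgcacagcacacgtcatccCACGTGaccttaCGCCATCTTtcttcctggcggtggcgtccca
Mrpl18: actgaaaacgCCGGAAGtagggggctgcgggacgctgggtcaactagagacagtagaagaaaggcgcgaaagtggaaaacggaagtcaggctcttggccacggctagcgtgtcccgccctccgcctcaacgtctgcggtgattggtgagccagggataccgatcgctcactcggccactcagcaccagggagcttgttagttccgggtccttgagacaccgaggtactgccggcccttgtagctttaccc
Mrpl51: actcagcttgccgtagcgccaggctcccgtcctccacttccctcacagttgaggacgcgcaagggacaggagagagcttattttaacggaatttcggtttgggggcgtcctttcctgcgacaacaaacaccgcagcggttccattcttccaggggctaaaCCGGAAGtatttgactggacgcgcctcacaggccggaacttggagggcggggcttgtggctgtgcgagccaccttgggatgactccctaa
Mrpl17: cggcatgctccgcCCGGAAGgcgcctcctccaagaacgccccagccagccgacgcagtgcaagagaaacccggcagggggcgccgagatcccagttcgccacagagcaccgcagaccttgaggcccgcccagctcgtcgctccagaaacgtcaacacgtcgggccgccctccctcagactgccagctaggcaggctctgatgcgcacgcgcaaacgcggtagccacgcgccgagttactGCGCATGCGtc
Mrps6: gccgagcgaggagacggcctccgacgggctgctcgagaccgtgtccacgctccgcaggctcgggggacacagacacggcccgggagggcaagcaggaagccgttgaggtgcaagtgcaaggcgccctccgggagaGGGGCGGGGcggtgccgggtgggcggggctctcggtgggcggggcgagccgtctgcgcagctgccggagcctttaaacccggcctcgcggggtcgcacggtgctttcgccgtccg
Mrpl36 held the YY1 motif, read on the opposite strand, 31 bases before its start and an E-box at 43, and Mrpl18 an ETS match at 240. Mrpl51 held an ETS match at 90. Mrpl17, which went against most members, held the NRF1 motif at 11 and an ETS match at 237, and Mrps6 held an SP1 match at 115 and no other of the 5 motifs in these bases. Members with and without these 3 motifs were not tested against each other: 22 of the 34 with a motif were lower in atria, with a median log2 difference of -0.21, and 24 of the 33 without, with a median of -0.24.

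Many of these genes begin back to back with another gene. For 23 of the 67 (34.3%), a protein-coding gene on the opposite strand began within 1000 bases before their start, as it did for 8.0% of all 17492. Mrpl46 and Mrps11, both members, began 42 bases apart, Mrpl43 and the mitochondrial helicase gene Twnk 116 apart, Mrpl47 and the complex I gene Ndufb5 308 apart, and Mrps12 and the mitochondrial seryl-tRNA synthetase gene Sars2 147 apart. Mrps6 began 14 bases from Slc5a3, a myo-inositol transporter gene, on the same strand.

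The first comparison asked how the atria differed from the ventricles, as the mean over 5 ages with 15 arrays of each chamber. Mitochondrial ribosomal protein genes were lower in atria as a group: 53 of 76 were called lower and 2 higher, with limma at an adjusted p below 0.05 over all 27256 probe sets tested. Of all probe sets, 21.5% were called lower and 20.9% higher. The median log2 difference was -0.22 for the members and -0.01 for all probe sets, and 68 of the 76 lay below 0. The 55 calls became 52 without atrial array 1 of E14.5, 53 without the 3 arrays with high Sftpc, 54 without the 2 arrays with high Alb, and 56 over the 4 other ages. In tissue samples, fewer muscle cells and less of an RNA in each cell cannot be told apart. Beside this, 5 of 12 cardiomyocyte markers were lower in atria and 1 higher. Of 10 fibroblast markers 8 were higher and 1 lower, 6 of 8 erythroid, 6 of 8 macrophage and 6 of 7 epicardial markers were higher and 0 lower, and their part in the result was not tested. The summed intensity of the 12 cardiomyocyte markers was 110422 to 166398 over the ventricular arrays and 97018 to 152066 over the atrial ones. That of the 10 fibroblast markers was 46132 to 67566 and 52375 to 86078, and that of the 8 erythroid markers 1528 to 69448 and 3656 to 87984. No gene of these lists was listed at 0 on any array.

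**Figure D2:**
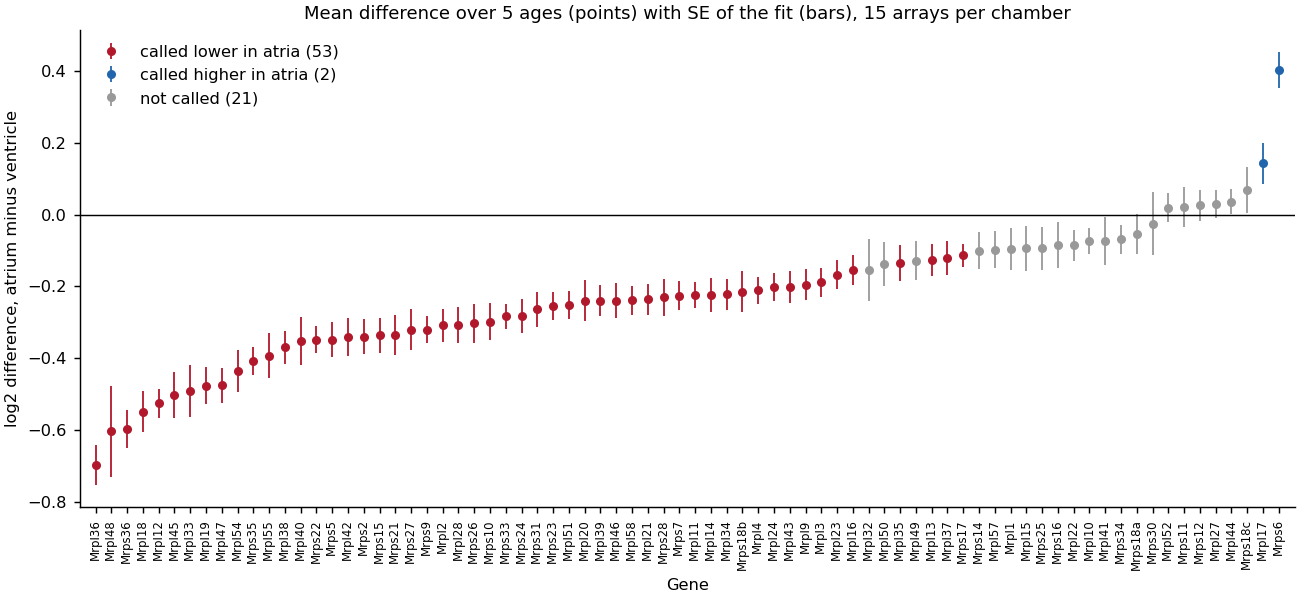
Log2 difference between atrium and ventricle for each of the 76 genes (points, mean of 5 ages, 15 arrays per chamber), with bars of the standard error (SE) of the fit. The 53 called lower run down to -0.70 for Mrpl36, and Mrps6 at 0.40 and Mrpl17 at 0.14 are the 2 called higher.

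Mrpl36, the counterpart of a small zinc-binding protein of the bacterial large subunit, had the largest difference. Its intensity was 1677 at lowest, 1884 at the median and 2034 at highest on the 15 ventricular arrays, and 978.9, 1060 and 1712 on the atrial ones. Apart from atrial arrays 1 of E12.5 and E14.5 (1500 and 1712) and array 2 of E14.5 (1448), the atrial values were at most 1260, and the chambers overlapped through the array at 1712 alone. It was 1.62-fold lower in atria (log2 -0.70 ± 0.06 SE, adjusted p = 2.7e-11). Mrpl12, the stalk protein that recruits translation factors to the ribosome, lay at 3131, 4006 and 5188 in ventricles and at 2191, 2736 and 3514 in atria. Its difference was -0.53 ± 0.04 (adjusted p = 1.3e-11). Mrpl18, which sits in the central protuberance of the large subunit, lay at 1707, 2178 and 2752 in ventricles and 1098, 1537 and 2030 in atria, a difference of -0.55 ± 0.06 (adjusted p = 6.4e-09). For both genes the ranges overlapped over the 5 ages together, and the ventricular median lay above every atrial array.

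Mrpl45, which holds the ribosome at the inner membrane near the exit of the protein tunnel, lay at 1326, 2005 and 3036 in ventricles and at 1206, 1394 and 1665 in atria (-0.50 ± 0.06, adjusted p = 2.6e-07). Mrps36 carries a small subunit name but was not classed here as a stable protein of the mitochondrial ribosome. It is described as a component of the alpha-ketoglutarate dehydrogenase complex. It lay at 2287, 2666 and 4188 in ventricles and at 1423, 1938 and 2830 in atria (-0.60 ± 0.05, adjusted p = 2.2e-10). Mrpl48, another protein of the central protuberance, differed by as much (-0.60 ± 0.13, adjusted p = 0.00029) with a wide spread: its atrial arrays at E13.5 read 715.6, 1783 and 718.4. A second probe set of Mrpl48 gave -0.10 ± 0.04 (adjusted p = 0.033) and another -0.11 ± 0.08 (adjusted p = 0.3), so that the size of its difference was not shared by its probe sets.

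Mrps6 went the other way. Its protein is the counterpart of bacterial S6, at the side platform of the small subunit. It read 2369, 2341 and 3293 on the E12.5 atrial arrays, 3079, 2838 and 2992 at E13.5, 2216, 2946 and 2916 at E14.5, 3200, 2819 and 3038 at E16.5 and 3069, 3236 and 3108 at E18.5. The 15 ventricular arrays lay between 1678 and 2543. Atrial arrays were thus higher than ventricular ones of the same age at every age but E14.5, where array 1 of the atria lay within the ventricular range. The gene was 1.32-fold higher in atria (0.40 ± 0.05, adjusted p = 1.5e-07), and its second probe set gave 0.46 ± 0.06 (adjusted p = 2.1e-07). Mrps6 and Slc5a3 begin together on one strand, and Slc5a3 was 1.84-fold higher in atria (0.88 ± 0.05, adjusted p = 7.2e-14). Over time Slc5a3 fell by 0.79 in ventricles (adjusted p = 1.1e-05), where Mrps6 gave 0.11 ± 0.11 (adjusted p = 0.53). Whether the probe sets of Mrps6 also read transcripts of the neighbour was not tested.

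**Figure D3:**
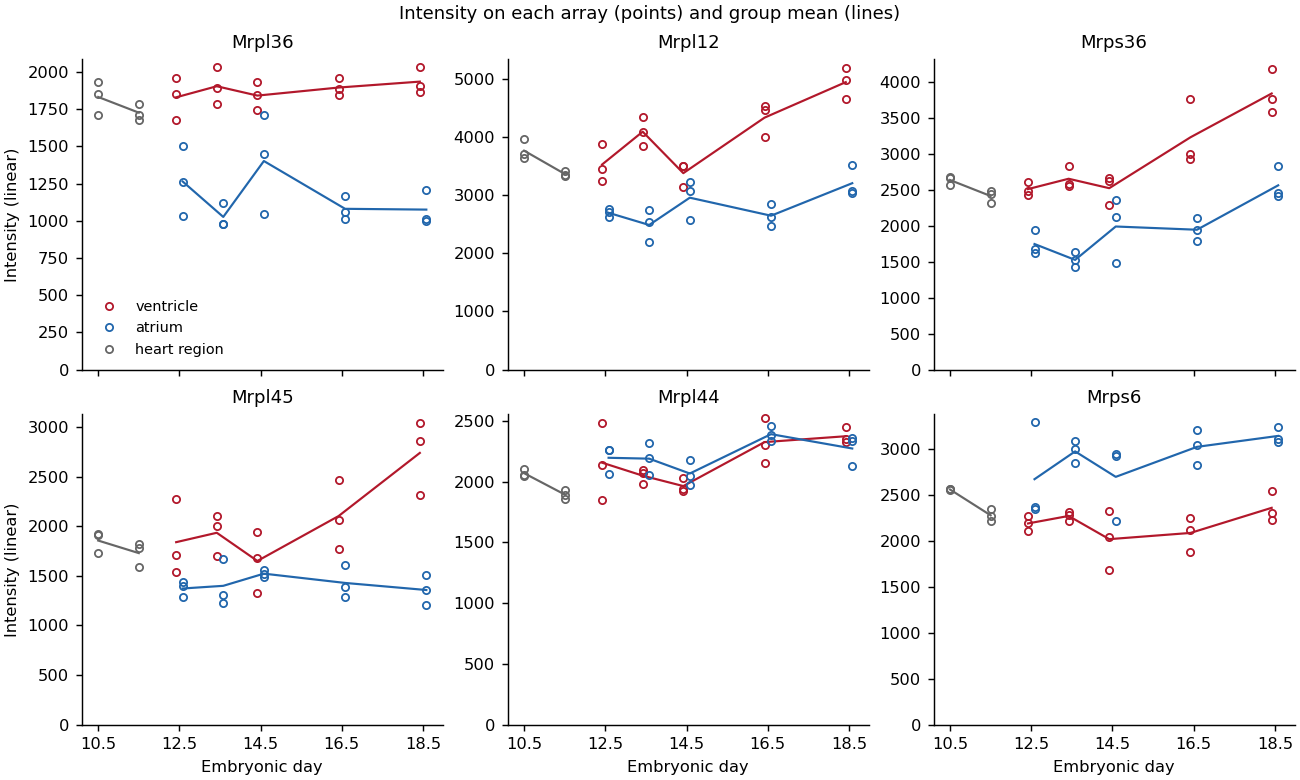
Linear intensity on each array (points) by embryonic day for 6 genes, with lines through the group means. Mrpl36, Mrpl12 and Mrps36 run lower in atria (blue) than in ventricles (red), Mrpl45 separates most at E18.5, Mrpl44 does not separate, and Mrps6 runs higher in atria.

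Mrpl17, the counterpart of bacterial L17 near the tunnel exit, was the other gene called higher in atria. It lay at 1117, 1402 and 1797 in ventricles and at 1253, 1548 and 2084 in atria, so that the ranges overlapped widely. The difference was 0.14 ± 0.06 (adjusted p = 0.042). It lost its call when 1 of 15 of the 30 arrays was left out: ventricular array 1 of E12.5, E13.5, E16.5 and E18.5, array 2 of E13.5 and E14.5 and array 3 of E18.5, and atrial array 1 of E12.5, E13.5, E14.5 and E16.5, array 2 of E16.5 and E18.5 and array 3 of E13.5 and E14.5. The adjusted p without one of them was 0.083 at most. A second, dimmer probe set of Mrpl17 gave 0.39 ± 0.13 (adjusted p = 0.0134), and another gave -0.12 ± 0.12 (adjusted p = 0.45).

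Of the genes known from inherited heart and mitochondrial disease, some were lower in atria and others did not pass. Mrps22 and Mrpl3, both tied to hypertrophic cardiomyopathy, were lower in atria, at -0.35 ± 0.04 (adjusted p = 1.3e-08) and -0.19 ± 0.04 (adjusted p = 0.00038). Mrps22 lay at 1550 to 2099 on the ventricular arrays and at 1231 to 1508 on the atrial ones, with no overlap over the 5 ages. Mrpl44, also a cardiomyopathy gene, lay at 1852 to 2520 in ventricles and 1971 to 2453 in atria and did not pass (0.04 ± 0.04, adjusted p = 0.44). Mrps16, tied to fatal neonatal lactic acidosis, did not pass either (-0.09 ± 0.06, adjusted p = 0.292). Mrpl11, at the factor binding site of the large subunit, was lower (-0.22 ± 0.04, adjusted p = 1.3e-05). Mrps12, at the decoding site (0.03 ± 0.04, adjusted p = 0.65), Mrpl41 (-0.07 ± 0.07, adjusted p = 0.39) and Mrps30 (-0.02 ± 0.09, adjusted p = 0.84), which belongs to the large subunit despite its name, did not pass. A second probe set of Mrpl41 was called lower (-0.21 ± 0.05, adjusted p = 0.00125), as was the mean of its probe sets (-0.14, adjusted p = 0.009).

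The 3 genes named Mrps18 did not share a call. Mrps18b was lower in atria (-0.21 ± 0.06, adjusted p = 0.0034), with 732.9 at the atrial and 905.4 at the ventricular median of 15 arrays. Mrps18a, which sits in the large subunit (-0.05 ± 0.06, adjusted p = 0.46), and Mrps18c (0.07 ± 0.06, adjusted p = 0.4) did not pass. The differences between these genes were not tested.

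The chamber difference ran through both subunits. Of 49 large subunit genes 34 were lower and 1 higher (median -0.21), and of 26 small subunit genes 18 were lower and 1 higher (median -0.26). Of the 45 with a bacterial counterpart 32 were lower and 2 higher (median -0.22), and of 30 without one 20 were lower (median -0.24). Mrps18c was counted with a bacterial counterpart, and Mrps18a and Mrps18b without one. Mrps36, not classed as a stable protein of this ribosome, was counted in none of these groups. Over all 135 measured probe sets of the members, 85 were lower and 4 higher. Of 36 genes with several measured probe sets, 29 had the same sign in each, and none was called both ways.

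By age, most calls fell at E18.5, where 47 of 76 members were lower in atria and 1 higher, and at E13.5, with 36 lower and 1 higher. Fewer were called at E16.5 (22 lower, 1 higher), at E12.5 (11 lower, 0 higher) and at E14.5 (1 lower, 1 higher). The gene called higher was Mrps6 each time. At E12.5, where limma gave none higher, 4 were higher at an unadjusted p below 0.05. Of all probe sets, 8.53% were lower and 11% higher at E18.5, and 6.27% and 5.87% at E13.5. At E16.5 these shares were 8.32% and 8.55%, at E12.5 5.27% and 4.4%, and at E14.5 2.38% and 3.8%. The members' median was -0.41 at E18.5 (0.01 over all probe sets), -0.28 at E13.5 (0.04), -0.23 at E16.5 (-0.05), -0.13 at E12.5 (-0.03) and -0.09 at E14.5 (-0.03). The E14.5 share was near the background. From E13.5 to E14.5 the members' mean per array went from 0.09 to -0.004 in ventricles and from -0.20 to -0.09 in atria. Atrial arrays 1 and 2 of E14.5 held Irx4, and whether this bears on the share was not tested. Of the genes called lower, 34 were shared by E13.5 and E18.5, which is 94.4% of the former and 72.3% of the latter. The difference was below 0 at each of the 5 ages for 49 members, at 4 ages for 12 and at 3 or fewer for 15, and Mrps6 was below 0 at none.

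**Figure D4:**
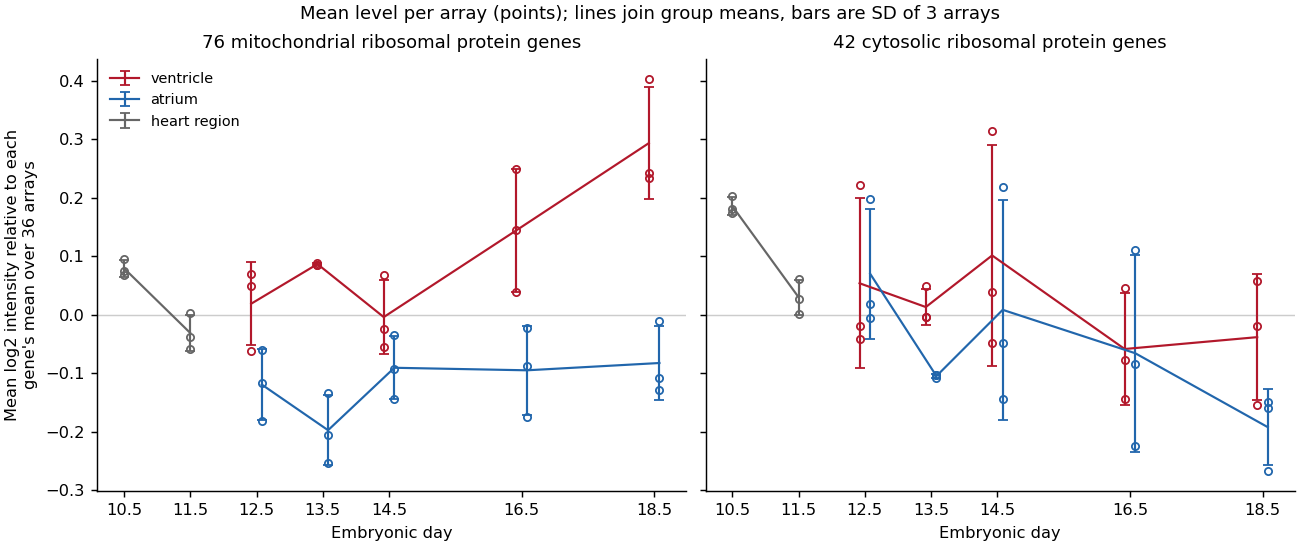
Mean log2 intensity per array, relative to each gene's mean over 36 arrays, for the 76 mitochondrial (left) and 42 measured cytosolic ribosomal protein genes (right) by embryonic day. Points are arrays, lines join group means and bars are the SD of 3 arrays. On the left the mean is 0.29 in ventricles (red) and -0.08 in atria (blue) at E18.5, and on the right it is -0.04 and -0.19.

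Single arrays moved the counts by age. At E13.5 the 37 calls became 18 without ventricular array 1, 22 without ventricular array 2, and 21 and 23 without atrial arrays 2 and 3. At E16.5 the 23 calls became 13 without ventricular array 3 and 14 without atrial array 3. At E14.5 the 2 calls became 5 without atrial array 1, 0 without ventricular array 1 or atrial array 3, and 1 without ventricular array 3. Without the 3 arrays with high lung genes 20 were called at E13.5 and 13 at E16.5. At E18.5 the 48 calls stayed between 39 and 48 when 1 array was left out.

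Mrpl36 was the one gene called lower in atria at each of the 5 ages, by 0.54, 0.88, 0.42, 0.80 and 0.84 on the log2 scale from E12.5 to E18.5 (SE 0.12 each, adjusted p between 1.2e-05 and 0.041). This did not hold in every setting. Without ventricular array 1 of E14.5, 0 members were called at E14.5, and with median centring 0 were called at E12.5 and 0 at E14.5. At E18.5 Mrpl36 read 1209, 1015 and 1001 in atria and 1866, 2034 and 1906 in ventricles. At E14.5 it read 1712, 1448 and 1044 in atria and 1745, 1843 and 1936 in ventricles, so that the chambers came close there and did not overlap. The largest difference at any age was that of Mrpl45 at E18.5, with 1512, 1352 and 1206 in atria and 2860, 3036 and 2317 in ventricles, which do not overlap (-1.0 ± 0.15, adjusted p = 9.6e-06). At E13.5 the largest was Mrpl33, with 679.1, 644.7 and 669.8 in atria and 994.9, 1243 and 1602 in ventricles (-0.90 ± 0.16, adjusted p = 0.00034). The gene with the smallest adjusted p at E18.5, Mrps35, was 1.67-fold lower in atria (-0.74 ± 0.09, adjusted p = 5.5e-07). Mrpl33 and Mrps35 were chosen after their values were seen.

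The second question was how the genes changed from E12.5 to E18.5 in each chamber. In ventricles 35 of 76 members rose and 0 fell in the limma fit, with 0 falling and 42 rising at an unadjusted p below 0.05. Of all probe sets, 16% fell and 12.7% rose. The members' median was 0.27, against -0.05 for all probe sets, and 70 of 76 lay above 0. Leaving out ventricular array 1 of E12.5 reduced the 35 calls to 20, and leaving out ventricular array 2 of E18.5 to 22. The former held the highest Nr2f1 of the ventricular arrays (457.3), and whether this bears on the count was not tested. Over the same period 5 of 12 cardiomyocyte markers rose in ventricles and 0 fell, 7 of 10 fibroblast markers rose and 1 fell, and 7 of 8 erythroid markers fell, with a median of -3.41. The summed erythroid intensity went from 25490 to 69448 over the 3 ventricular arrays of E12.5 to 1528 to 1800 at E18.5. The part of these markers in the result was not tested.

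Mrpl55, a large subunit protein tied to bacterial L31, rose most. It read 768.3, 1170 and 959.2 at E12.5 and 1635, 1948 and 1738 at E18.5 in ventricles, without overlap. This was a 1.84-fold rise (0.88 ± 0.14, adjusted p = 3e-05). Mrps23, a small subunit protein without a bacterial counterpart, read 1674, 1935 and 1860 and then 2792, 2901 and 2581 (0.59 ± 0.09, adjusted p = 6.9e-06), also without overlap. Mrps36 (0.61 ± 0.12, adjusted p = 0.00027), Mrps28 (0.60 ± 0.12, adjusted p = 0.00032), Mrpl45 (0.58 ± 0.15, adjusted p = 0.0032) and Mrps16 (0.58 ± 0.14, adjusted p = 0.0028) followed. Mrpl12 rose by 0.49 ± 0.09 (adjusted p = 0.000155), Mrpl3 by 0.45 ± 0.09 (adjusted p = 0.00042) and Mrps18a by 0.43 ± 0.12 (adjusted p = 0.0098), and Mrps18a lost its call without ventricular array 1 of E12.5 (adjusted p = 0.079) or array 2 of E18.5 (adjusted p = 0.063). Mrpl36, the gene with the largest chamber difference, read 1677, 1960 and 1853 at E12.5 and 1866, 2034 and 1906 at E18.5 in ventricles and did not pass (0.08 ± 0.12, adjusted p = 0.67). Mrpl11, Mrpl41, Mrpl44, Mrps12, Mrps18b, Mrps18c, Mrps22 and Mrps30 did not pass either, with values between -0.12 and 0.22. For Mrpl41 and Mrpl44 this depended on the probe set. The second probe set of Mrpl41 rose by 0.62 ± 0.11 (adjusted p = 0.000123), against -0.11 ± 0.15 for the one used, and the mean of its probe sets rose by 0.26 (adjusted p = 0.0442). The mean of the probe sets of Mrpl44 rose by 0.27 (adjusted p = 0.00224). Without ventricular array 3 of E12.5 Mrpl44 was called as well (0.25, adjusted p = 0.0214). Array weights called Mrps22 (0.19, adjusted p = 0.046) and Mrps18c (0.30, adjusted p = 0.0395).

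In atria, the same interval gave 7 members that rose and 3 that fell, with 12.6% of all probe sets rising and 11.7% falling. The members' shares were no larger than these, and their median was 0.04, against 0.01 for all probe sets. The count of 10 calls became 4 without atrial array 1 or 2 of E12.5 or array 1 of E18.5, and 6 without array 2 or 3 of E18.5, where without array 3 Mrpl41 was called (adjusted p = 0.0178) and was not among the 10. It became 11 without array 3 of E12.5. Without the 3 arrays with high Sftpc 6 were called, and without the 2 with high Alb 4. The 7 that rose were among the 35 that rose in ventricles. They were Mrps36 (0.55 ± 0.12, adjusted p = 0.0011), Mrpl18 (0.46 ± 0.13, adjusted p = 0.0094), Mrpl55 (0.42 ± 0.14, adjusted p = 0.029), Mrpl4 (0.33 ± 0.08, adjusted p = 0.0043), Mrps28 (0.32 ± 0.12, adjusted p = 0.0455), Mrps23 (0.27 ± 0.09, adjusted p = 0.019) and Mrpl12 (0.25 ± 0.09, adjusted p = 0.046). Mrps36 read 1939, 1626 and 1682 at E12.5 and 2830, 2458 and 2412 at E18.5 in atria, without overlap.

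Mrpl49 fell in atria, from 921.0, 815.8 and 970.3 to 630.8, 651.3 and 717.7, without overlap (-0.43 ± 0.12, adjusted p = 0.0105). A second probe set of about the same brightness gave -0.01 ± 0.10 (adjusted p = 0.962), and the mean of both gave -0.22 and was not called (adjusted p = 0.0689). Mrpl49 begins 192 bases from Fau, the gene of a cytosolic ribosomal protein fused to a ubiquitin-like protein, on the opposite strand. Mrps18b (-0.38 ± 0.13, adjusted p = 0.032) and Mrpl46 (-0.30 ± 0.11, adjusted p = 0.043) fell as well. Single atrial arrays ended several of the 10 calls. Mrps18b and Mrpl55 lost theirs without any 1 array of E12.5 or array 1 or 3 of E18.5, Mrpl46 without array 1 or 2 of E12.5 or array 2 or 3 of E18.5, and Mrps23 without array 1 or 2 of either age. Mrpl12 lost its call without any 1 of the 6 arrays and Mrpl18 without array 1 of either age, and the adjusted p of these losses was 0.225 at most. Mrps36, Mrpl4 and Mrpl49 kept theirs without any 1 array, and Mrps28, whose ages overlapped, was not followed. Mrpl3, Mrpl11, Mrpl41, Mrpl44, Mrps12, Mrps16, Mrps18a, Mrps18c, Mrps22 and Mrps30 did not pass, with values between -0.37 and 0.25, and the mean of the probe sets of Mrpl44 was called (0.21, adjusted p = 0.0141). Of the 8 erythroid markers 8 fell in atria, with a median of -4.43, and 3 of 12 cardiomyocyte markers rose. Of 10 fibroblast markers 4 rose and 2 fell, of 8 endothelial markers 4 rose and 0 fell, and of 8 macrophage markers 3 rose and 0 fell. The part of these markers in the result was not tested.

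**Figure D5:**
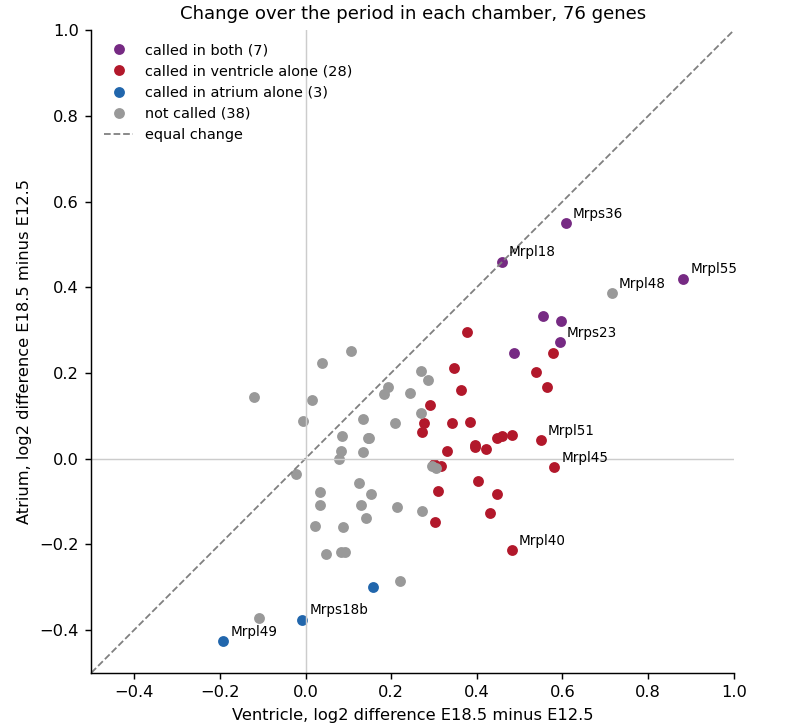
Log2 change from E12.5 to E18.5 of the 76 genes in ventricles (horizontal) and atria (vertical), with the line of equal change dashed. Of the genes, 28 were called in ventricles alone, 7 in both chambers and 3 in atria alone, and 70 lie below the dashed line.

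The change was tested between the chambers directly. For 70 of 76 members the ventricular change was the more positive, and the median of atrium minus ventricle was -0.25, against 0.05 for all probe sets. In limma 2 members were called lower and 0 higher, with 26 lower and 0 higher at an unadjusted p below 0.05, while 1.12% of all probe sets were called lower and 2.66% higher. Mrpl51, a large subunit protein found in mitochondria alone, read 4029, 5101 and 4637 at E12.5 and 6547, 6954 and 6582 at E18.5 in ventricles. In atria it read 4827, 4071 and 4670 and then 4906, 4455 and 4589. The ventricular values did not overlap between the ages and the atrial ones did, and the changes differed by -0.51 ± 0.12 (adjusted p = 0.018). Mrpl52, another large subunit protein of mitochondria alone, read 1586, 1735 and 1612 and then 1762, 2161 and 2203 in ventricles. In atria it read 1946, 1738 and 2160 and then 1720, 1728 and 1805, and the changes differed by -0.45 ± 0.13 (adjusted p = 0.049). The mean of the 3 probe sets of Mrpl52 gave -0.21 (adjusted p = 0.38) and array weights -0.25 (adjusted p = 0.1), and the call was lost without any 1 of 9 of the 12 arrays, with an adjusted p of 0.129 at most. The 3 arrays whose removal kept it were ventricular array 2 and atrial array 2 of E12.5 and ventricular array 1 of E18.5. Mrpl51 lost its call without array 1 of E12.5 or array 2 of E18.5 in either chamber, with an adjusted p of 0.073 at most. The count of 2 became 0 without those 4 arrays in turn, 1 without atrial array 3 of E18.5, 4 without ventricular array 2 of E12.5 or atrial array 1 of E18.5, and 5 without atrial array 2 of E12.5. It was 1 without the 3 arrays with high Sftpc and 4 without the 2 with high Alb.

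The interval was then divided at E14.5. With both chambers averaged, 0 of 76 members were called between E12.5 and E14.5 in limma, and 3 were lower and 1 higher at an unadjusted p below 0.05. Of all probe sets 2.9% fell and 3.91% rose there. From E14.5 to E18.5 24 members rose and 0 fell (35 and 2 at an unadjusted p below 0.05), with 9.24% of all probe sets rising and 10.8% falling, and the median was 0.15, against -0.05 for all probe sets. Mrpl4, which lines the protein tunnel, rose by 0.37 ± 0.06 (adjusted p = 5e-05) and Mrps34 by 0.38 ± 0.06 (adjusted p = 5.6e-05), both chosen after their values were seen. For the first of these intervals, the count of 0 became 1 without ventricular array 2 of E12.5, atrial array 2 or 3 of E12.5 or ventricular array 2 of E14.5, and 2 without atrial array 3 of E14.5.

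The earliest ages compare heart region samples. By the description these hold other tissue than heart, while the source field names the whole heart. From E10.5 to E11.5 1 member rose and 0 fell in limma, with 2 rising and 13 falling at an unadjusted p below 0.05, while 0.928% of all probe sets rose and 0.227% fell. The median was -0.14, against 0.01 for all probe sets, and 65 of 76 members lay below 0. The one that rose was Mrpl41, a large subunit protein also described as a partner of Bcl-2. It read 1716, 1672 and 1833 at E10.5 and 2824, 2536 and 2612 at E11.5, without overlap (1.52-fold, 0.61 ± 0.15, adjusted p = 0.0335). On the 30 later arrays it lay between 1818 and 3368, and the lowest of these, ventricular array 1 of E13.5, was within the E10.5 range. Leaving out any of the 6 arrays ended this call. From E11.5 to E12.5, with the chambers averaged, 0 members were called (0 lower and 1 higher at an unadjusted p below 0.05), with 0.271% of all probe sets higher and 0.664% lower, and the median was -0.01. There the step from heart region to separate chambers and the step in age cannot be told apart.

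Other genes of mitochondrial translation were read from lists chosen for this work. Of 4 measured mitoribosome proteins that carry other names, 4 were lower in atria, among them Ptcd3 (-0.36 ± 0.04, adjusted p = 1e-08) and Dap3 (-0.14 ± 0.04, adjusted p = 0.004). Of 13 translation factors 10 were lower and 0 higher. They included Tufm, the elongation factor that delivers tRNAs (-0.59 ± 0.05, adjusted p = 2.4e-10), and Lrpprc, which stabilises mitochondrial messenger RNAs (-0.70 ± 0.05, adjusted p = 3.8e-13). Of 18 mitochondrial aminoacyl-tRNA synthetases 12 were lower and 0 higher, led by Ears2 (-1.06 ± 0.09, adjusted p = 3.7e-11). Of 22 genes of mitoribosome assembly and rRNA modification 8 were lower and 1 higher, with Mrm3 at -0.38 ± 0.04 (adjusted p = 9.5e-09). Of 14 genes for copying and transcribing mitochondrial DNA 6 were lower and 0 higher, and of 17 import and protease genes 16 were lower and 1 higher. From E12.5 to E18.5, 5 of the 13 translation factors rose in ventricles and 0 fell, and in atria 0 rose and 0 fell. In ventricles 6 of the 18 synthetases, 9 of the 17 import and protease genes and 5 of the 14 genes for mitochondrial DNA rose and 0 fell, and 6 of the 22 assembly genes rose and 1 fell. In atria the synthetases gave 0 that rose and 2 that fell, the import and protease genes 0 and 3, the genes for mitochondrial DNA 2 and 2, and the assembly genes 1 and 0.

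Respiratory chain genes were counted next, since this ribosome makes their mitochondrial partners. Of 79 measured subunits 62 were lower in atria and 1 higher (median -0.23), 43 rose and 1 fell in ventricles from E12.5 to E18.5 (median 0.37), and 12 rose and 1 fell in atria (median 0.10). Cox8b, a subunit of complex IV in heart and skeletal muscle, rose by 2.77 ± 0.42 in ventricles (adjusted p = 1.2e-05) and by 3.01 ± 0.42 in atria (adjusted p = 1.05e-05). Of 42 measured cytosolic ribosomal proteins, 4 were lower in atria and 1 higher (median -0.06), 4 fell and 1 rose in ventricles (median -0.09), and 14 fell and 0 rose in atria (median -0.28). Of 16 genes of cytosolic ribosome biogenesis 7 fell in ventricles and 10 in atria, and 0 rose in either, and Nop56 fell by 0.73 in ventricles (adjusted p = 0.00059) and by 1.0 in atria (adjusted p = 3.5e-05). Of 25 cell cycle genes 9 fell and 1 rose in ventricles, and 20 fell and 0 rose in atria. The lists were not tested against one another.

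Among regulators of mitochondrial gene expression, 9 of 15 were lower in atria and 1 higher. Perm1, a muscle regulator of oxidative metabolism (-1.33 ± 0.18, adjusted p = 8.5e-07), the coactivator gene Ppargc1b (-0.93 ± 0.09, adjusted p = 8.9e-10) and the nuclear receptor gene Esrrg (-0.63 ± 0.06, adjusted p = 3.55e-10) were lower, and the corepressor gene Nrip1 was higher (0.25 ± 0.05, adjusted p = 0.00015). Mycn, a growth regulator of the embryonic heart, was lower in atria (-1.0 ± 0.11, adjusted p = 2e-08) and fell with age in both chambers, by 0.82 in ventricles (adjusted p = 0.014) and by 1.30 in atria (adjusted p = 0.00038). Ppargc1a was lower in atria (-0.41 ± 0.06, adjusted p = 1.45e-06) and rose in both chambers, by 0.37 ± 0.13 in ventricles (adjusted p = 0.0365) and by 0.54 ± 0.13 in atria (adjusted p = 0.0036). Ppargc1b rose in ventricles (0.85 ± 0.20, adjusted p = 0.0017) and in atria gave 0.11 ± 0.20 (adjusted p = 0.74). Myc did not pass in any of these 3 comparisons. Across the 12 group means the correlation with the members' mean was 0.92 for Ppargc1b, 0.91 for Tfam, 0.69 for Polrmt and 0.66 for Esrra. It was 0.55 for Ppargc1a, 0.54 for Gabpa, 0.17 for Nrf1, 0.12 for Pprc1, 0.12 for Myc and -0.16 for Yy1. These values are a description over groups that share arrays.

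The 10 genes outside the family whose 12 group means correlated best with the members' mean, among 12970 genes tested, had coefficients between 0.955 and 0.968. They were Mtres1, Timm17a, Tbrg4, Dlst, Uqcrc1, Chchd1, Samm50, Tomm22, Rangrf and Grhpr. Timm17a, Tomm22 and Samm50 encode parts of the import and assembly machinery of the mitochondrial membranes, Uqcrc1 a complex III subunit, and Chchd1 a protein of the small subunit itself. As this choice favours genes that are lower in atria, their direction is no result, and their differences are given as a description, with values between -0.87 for Grhpr and -0.27 for Tomm22.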

How the data were processed

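Total RNA of 36 samples was hybridised to one-colour Affymetrix arrays. The authors deposited linear intensities, computed by a method not given in the sources used here. Probe sets were named through the platform annotation: of 45101, 64 controls were left out, and of the others 34945 had 1 symbol, 932 several and 9160 none. The values were taken to log2(intensity + 17). Those over 171.8, the median of the whole table, on 3 or more arrays were kept (27256 probe sets, 12970 genes). limma 3.58.1 in R 4.3.3 fitted 12 group means (24 residual and 5.68 prior degrees of freedom, with an intensity trend) with 13 comparisons, and p-values were adjusted by Benjamini-Hochberg over all probe sets, with a call below 0.05. Fold changes are on the log2(intensity + 17) scale, which understates changes of dim probe sets. The fit was run on simulated data with independent noise for each probe set and known shifts put into the atria. Such data hold no shift of whole arrays and no mixed tissue, so the run cannot speak to these. Named were up to 6 called members with the largest change in each direction (for comparisons of 2 groups, among those whose arrays did not overlap), 6 or fewer that went against most, and Mrpl3, Mrpl11, Mrpl12, Mrpl41, Mrpl44, Mrps12, Mrps16, Mrps18a, Mrps18b, Mrps18c, Mrps22, Mrps30 and Mrps36. Also named were the 10 genes outside the family most like the members' mean and up to 4 called genes of each list. Any others were chosen after their values were seen. Members and gene lists were chosen with earlier results of these data known. Same-numbered atrial and ventricular arrays did not deviate together (correlation above 0.1 in 1 of 15 pairs, from -0.335 to 0.159), so replicate numbers were not taken as pairs. Alternatives were each array left out in turn, a replicate block, array weights, a fit with no intensity trend or on the compared groups alone, a filter at 582.9 or none, pseudocounts of 1 and 68, all probe sets of a gene averaged, median centring and quantile normalization. Leaving out the arrays with high lung or liver genes, or E14.5, was chosen after seeing the data. Sequences are from RefSeq (GRCm38.p6).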

Additional observations from a re-analysis of the deposited data

Results flagged for a closer look

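Atria and ventricles differed in their change between E12.5 and E18.5 for 2 of 76 members, both called lower, by the contrast of the 2 changes in limma. Of all probe sets, 1.12% were called lower and 2.66% higher. The count ran from 0 to 5 with 1 array left out and from 0 to 23 over the other settings, so it gives no result about the members as a group. For Mrpl51, a protein of the large subunit, the atrial minus the ventricular change was -0.51 on the log2 scale (adjusted p = 0.018), and it kept its call in 19 of 25 other settings. For Mrpl52, another protein of the large subunit, it was -0.45 (adjusted p = 0.049), and it kept its call in 8 of 25. For Mrpl52 the mean of its probe sets gave -0.21 (adjusted p = 0.38).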

How the results depend on the processing

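Between the chambers over 5 ages, the count of 55 members stayed between 49 and 60 in every setting run. Of 32 calls of named members, 20 held in every setting run. With 1 array left out, counts ranged from 52 to 57 for the mean of 5 ages, 8 to 13 at E12.5, 18 to 34 at E13.5, 0 to 5 at E14.5, 13 to 25 at E16.5 and 39 to 48 at E18.5. They ranged from 20 to 35 for the ventricular change, 4 to 11 for the atrial change, 0 to 5 for the difference between chambers, 0 to 2 from E12.5 to E14.5, 18 to 28 from E14.5 to E18.5, and were 0 for E11.5 against E10.5 and for E12.5 against E11.5.

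Quantile normalization gave 6 calls at E14.5. Median centring gave 0 at E12.5, 0 at E14.5 (where the median turned to 0.0139), 7 at E16.5, 2 for the atrial change, 0 for the difference between chambers and 0 for E11.5 against E10.5, and the median from E12.5 to E14.5 turned to -0.0488. No filter gave 1 at E14.5, 1 for the difference and 0 for E11.5 against E10.5, and the fit with no intensity trend gave the same 3 counts. The strict filter gave 4 at E14.5 and 8 for the difference. The arrays of the compared groups alone gave 0 at E12.5, 0 at E14.5, 3 for the atrial change, 0 for the difference and 10 for E11.5 against E10.5. Array weights gave 30 at E12.5, 0 at E14.5, 31 for the atrial change, 23 for the difference, 4 from E12.5 to E14.5, 13 for E11.5 against E10.5 and 6 for E12.5 against E11.5. The mean of all probe sets gave 4 at E14.5, 4 for the difference, 1 from E12.5 to E14.5 and 0 for E11.5 against E10.5, and the ventricular change of Mrpl41 turned to 0.26. The replicate block gave 1 for the difference, where Mrpl52 lost its call (-0.45), and in atria Mrpl46 and Mrpl12 lost theirs. Without the arrays with high lung genes the counts were 20 at E13.5, 13 at E16.5, 6 for the atrial change and 1 for the difference. Without those with high liver genes they were 4 for the atrial change and 4 for the difference, and the median from E12.5 to E14.5 turned to -0.0066. Medians near 0 changed sign as well with 1 array left out: they lay between -0.0462 and 0.0031 from E11.5 to E12.5, and between -0.0117 and 0.031 from E12.5 to E14.5. The cause of these changes was not tested. The 3 arrays of a group limit the precision.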
